A study of Homo sapiens with 16 samples.

Results

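The 36 genes described here belong to the integrated stress response and its amino acid programme. They were taken as the rows of the deposited gene tables whose NCBI gene number maps to a given list of symbols, and all 36 were found among 27434 rows. The list holds 6 transcription factors, 5 feedback and signalling regulators, 10 enzymes of serine, one-carbon and other amino acid metabolism, 7 amino acid transporters, 6 genes for tRNA synthetases and tRNA export, and 2 genes for a secreted and a surface protein. The counts were read by group in all 16 libraries.

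Poly(A) RNA was sequenced from U2OS, a human osteosarcoma line, and HCT116, a human colorectal carcinoma line, in 8 groups of 2 libraries. The study asks whether SAM68, an RNA-binding protein encoded by KHDRBS1, is needed for the long noncoding RNA NORAD to regulate Pumilio proteins. Wild-type U2OS cells received a non-targeting siRNA pool, an siRNA pool against SAM68, the empty plasmid pcDNA3.1(+), or pcDNA3-HA-SAM68, which carries the mouse gene. HCT116 cells, either wild type or SAM68 knockout, received the non-targeting pool or an siRNA pool against NORAD. Every siRNA was given at 50 nM and every plasmid at 100 ng per 20000 cells, all with the same Lipofectamine reagent, and cells were harvested after 48 h. The labels do not say how the knockout was made or whether it is 1 clone, nor whether both libraries of a group stem from separate cultures, and the p-values therefore cover only how much these libraries vary, which may be technical variation.

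In the integrated stress response, kinases that sense amino acid shortage, unfolded protein, double-stranded RNA or haem deficiency phosphorylate the initiation factor eIF2, which lowers general translation while the mRNA of ATF4 is translated more. ATF4 protein then binds C/EBP-ATF response elements, usually as a dimer with a C/EBP factor, and raises genes for amino acid uptake, amino acid synthesis and tRNA charging. DDIT3 (CHOP), TRIB3 and PPP1R15A (GADD34) are induced further along and feed back on the response, GADD34 by directing the dephosphorylation of eIF2. Because ATF4 is set largely by translation, the level of its mRNA is not a measure of its protein, which was not measured here.

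Total expected counts (estimated reads per gene, summed) were 11349545 to 27387412 per library, and the 36 genes took 0.536% to 0.889% of them. The marker lists separated the lines: the summed level of 12 colon epithelial markers was 4373.7 to 5558.4 TPM (transcript abundance scaled for length and depth) in HCT116 and 925.9 to 1298.3 in U2OS, and that of 12 mesenchymal and bone markers 3038.8 to 5153.8 TPM in U2OS and 9.3 to 14.9 in HCT116. CDX1 and VIL1 were at 0 in every HCT116 library, and TWIST1 in every U2OS library. A mean of at least 1 TPM was reached by 4 of the 12 epithelial markers in U2OS and by 5 of the 12 mesenchymal ones in HCT116. Under control siRNA, edgeR called 10 of 11 tested mesenchymal markers higher and 1 lower in U2OS than in wild-type HCT116 (35.6% and 29.8% of all genes). In CPM, counts scaled to library depth, U2OS control siRNA libraries held KHDRBS1 at 244.7 and 248.7 and SAM68 siRNA libraries at 80.7 and 48.6. KHDRBS1 was at 206.3 to 241.3 CPM in wild-type HCT116 and 31.6 to 44.5 CPM in the knockout, where some reads of the gene thus remained. NORAD siRNA took NORAD from 249.2 and 232 to 50.2 and 47.4 CPM in wild type. In the knockout it took NORAD from 224.7 and 251.7 to 77.4 and 54.7 CPM. KHDRBS1 itself did not pass the edgeR test after SAM68 siRNA (adjusted p = 0.185) or with the SAM68 plasmid (adjusted p = 1), at 530.6 and 593.3 CPM beside 219.9 and 276.9 CPM with the empty plasmid. The SAM68 plasmid carries the mouse gene while reads were counted on human hg19, so these CPM do not measure how much was expressed.

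The promoters of the list were searched for the letters TGATGNAA, the core of the C/EBP-ATF response element, on both strands of a window from 250 bases before to 50 bases after each RefSeq start (assembly GRCh38.p14). Of the 36 genes, 30 had an entry, and NUPR1, EIF4EBP1, PSPH, SHMT2, ALDH1L2 and SLC7A11 had none. The letters stood in 11 of the 30 (36.7%), against 1217 of 27305 genes with a window (4.46%). These were CEBPG, CHAC1, ASNS, SLC3A2, SLC7A1, SLC1A5, SLC1A4, AARS1, GARS1, MARS1 and CARS1. A match is a description of the letters and not a measured binding site. The 5 examples below are genes whose values carry the results that follow. Each is read 5′ to 3′ along the strand of its gene with the match in capitals, so a match on the opposite strand reads as its reverse complement.
ASNS (chr7:97872458-97872487, minus strand): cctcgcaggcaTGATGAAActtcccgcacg
CHAC1 (chr15:40953251-40953280, plus strand): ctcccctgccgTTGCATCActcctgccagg
SLC1A5 (chr19:46784893-46784922, minus strand): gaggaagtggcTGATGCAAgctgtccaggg
AARS1 (chr16:70289675-70289704, minus strand): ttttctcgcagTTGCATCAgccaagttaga
MARS1 (chr12:57488053-57488082, plus strand): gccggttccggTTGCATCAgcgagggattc

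Most of the list was expressed in both lines. The lowest means were those of VLDLR (0 TPM), CBS (0.04 TPM) and ALDH1L2 (0.18 TPM) in HCT116 and STC2 (0.26 TPM) in U2OS. ATF4 had the highest TPM of the 36 in each line, with a mean of 863.77 TPM over the 8 U2OS libraries (716.88 to 979.03) and 760.5 TPM over the 8 HCT116 libraries (634.07 to 811.43). Behind it in HCT116 came SLC7A5, the light chain of the large neutral amino acid transporter, at a mean of 484.57 TPM, and MTHFD2, a mitochondrial folate enzyme, at 453.82 TPM. In U2OS the next were GARS1, the glycyl-tRNA synthetase, at 348.5 TPM and MTHFD2 at 339.39 TPM.

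**Figure D1:**
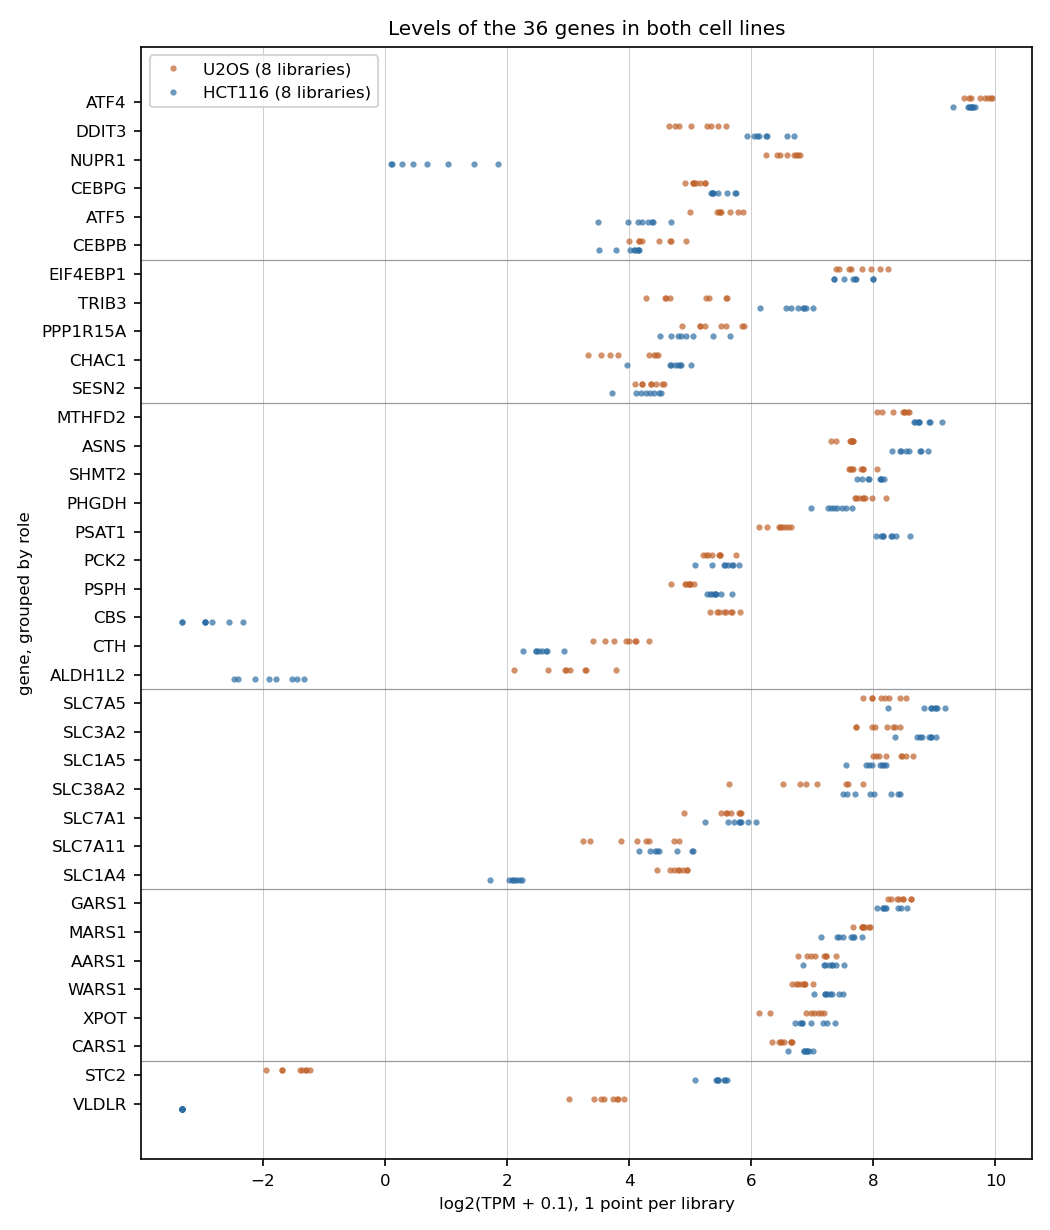
Levels of the 36 genes, grouped by role and separated by lines, as log2(TPM + 0.1); each point is 1 library, with 8 U2OS libraries in orange and 8 HCT116 libraries in blue. ATF4 has the highest TPM in both lines, while VLDLR and CBS lie far lower in HCT116 and STC2 far lower in U2OS.

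Under control siRNA, 23 of the 36 genes were lower in U2OS than in wild-type HCT116 and 6 were higher (edgeR's quasi-likelihood test with Benjamini-Hochberg adjustment, threshold 0.05). The 29 called make 80.6% of the list, beside 65.4% of all 16444 genes tested. Lower calls made up 29.8% and higher calls 35.6% of all genes. The median log2 fold change of the list was -0.64 beside 0.10 over all genes tested. With an offset for GC content and length 32 of the list were called, beside 11541 of 15718 genes tested. EIF4EBP1, PCK2, PPP1R15A and SLC1A5 lost their call with that offset. ATF5, CEBPB, MARS1, PHGDH, SLC38A2, SLC7A11 and XPOT gained one. On the scale of the deposited TPM, 24 of the 35 genes above 0 in both lines were lower in U2OS (68.6%, beside 37.5% of all genes), and the medians were -0.31 and 0.36. The labels do not say whether the lines were grown and sequenced together, so the line and any difference in handling cannot be told apart. In bulk RNA, fewer cells of a kind and less RNA per cell cannot be told apart either.

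All 5 feedback and signalling regulators were lower in U2OS, with a median log2 fold change of -0.77. TRIB3, a pseudokinase that binds AKT and ATF4, stood at 24.3 and 19.3 TPM in the U2OS control siRNA libraries and at 128.52 and 118.76 TPM in those of wild-type HCT116. The fitted log2 difference of TRIB3 came to -2.89 ± 0.18 (the error is the SE throughout; edgeR adjusted p = 6.14e-09). CHAC1, which degrades glutathione, was at 12.9 and 9.94 TPM against 32.1 and 28.4 TPM (-1.77 ± 0.22, edgeR adjusted p = 6.37e-06). For both genes, even the highest of the 8 U2OS libraries (48.27 TPM for TRIB3, 22.06 TPM for CHAC1) stayed below the wild-type HCT116 control libraries. PPP1R15A was called at -0.56 ± 0.21 on the count scale, but its TPM overlapped between the lines, at 29.1 and 35.6 against 33.1 and 41.3 TPM. EIF4EBP1, a translation repressor that binds the cap-binding protein, had a log2 fold change of -0.77 ± 0.24 that turned to 0.17 with an offset for GC content and length (edgeR adjusted p = 0.236).

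Among the transcription factors, DDIT3 was at 32.3 and 26.96 TPM in U2OS against 75.5 and 95.5 TPM in HCT116 (-1.75 ± 0.22, edgeR adjusted p = 8.36e-06). ATF4 differed far less, at 717 and 759 TPM against 793 and 811 TPM (-0.47 ± 0.15, edgeR adjusted p = 0.0158). NUPR1, a small stress-induced chromatin protein, went the other way, at 95.9 and 107 TPM in U2OS against 2.64 and 1.52 TPM in HCT116 (5.20 ± 0.42). None of these 3 genes had overlapping libraries.

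The enzymes split in both directions, with 6 of 10 lower and 3 higher in U2OS. ASNS, the asparagine synthetase, was at 202 and 157 TPM in U2OS against 372 and 436 TPM in HCT116 (-1.52 ± 0.15, edgeR adjusted p = 5.84e-07). PSAT1, the aminotransferase of serine synthesis, was at 100.47 and 69.5 TPM against 315 and 314 TPM (-2.25 ± 0.17). ALDH1L2, a mitochondrial folate dehydrogenase, was at 9.65 and 9.76 TPM in U2OS against 0.27 and 0.3 TPM in HCT116 (4.72 ± 0.30). CBS, which makes cystathionine from homocysteine, gave 2664 counts in the U2OS control libraries and 2 in those of wild-type HCT116, a ratio of library-scaled counts of 969 with a counting interval of 268 to 8006. CBS shares its row with a near-identical genomic copy, so the share of each is uncertain. PHGDH, the first enzyme of serine synthesis, did not pass the test (0.04 ± 0.21). On the TPM scale PHGDH lay wholly higher in U2OS, at a log2 ratio of 0.41, and it was called with the GC and length offset.

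SLC7A5 and its heavy chain SLC3A2 were both lower in U2OS. SLC7A5 stood at 250.78 and 252.18 TPM against 574.58 and 522.37 TPM (-1.50 ± 0.18), and SLC3A2 at 260.16 and 210.32 TPM against 492.44 and 493.73 TPM (-1.45 ± 0.17). SLC1A4, a carrier of alanine, serine and cysteine, was higher in U2OS, at 30.8 and 27.9 TPM against 4.15 and 4.01 TPM (2.48 ± 0.17). SLC7A11, the cystine carrier, overlapped on the TPM scale, at 26.5 and 20.04 against 21.8 and 27.4 TPM (-0.45 ± 0.33, edgeR adjusted p = 0.25). It was called with the GC and length offset and in a fit of only the groups compared.

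Of the tRNA genes, 4 of 6 were called lower in U2OS. WARS1, the tryptophanyl-tRNA synthetase, was at 109 and 107 TPM against 147 and 182 TPM (-0.96 ± 0.13). GARS1 was called at -0.32 ± 0.13, but its TPM overlapped and its TPM ratio was 0.04 on the log2 scale. The remaining pair were close to all or none. STC2, a secreted glycoprotein, was at 0.21 TPM in both U2OS control libraries and at 47.1 and 47.4 TPM in HCT116 (-8.14 ± 0.23). VLDLR, a lipoprotein receptor, was at 14.94 and 14.04 TPM in U2OS and had 0 counts in all 8 HCT116 libraries. Set against a floor of 3 counts over the group, VLDLR was at least 431-fold higher in U2OS.

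Lists around the pathway are read against the same 29.8% of all genes called lower and 35.6% called higher. Of 18 genes for eIF2 kinases, eIF2, eIF2B and their regulators, 8 were lower in U2OS and 3 higher, among them IMPACT (-2.15), an inhibitor of GCN2 activation. Of 32 further reported ATF4 and CHOP targets 14 were lower and 10 higher, with GDF15, a secreted stress hormone, at -7.06 and DDIT4, an inhibitor of mTORC1, at -3.14. Of 8 other cytosolic tRNA synthetases 6 were lower, and of 12 endoplasmic reticulum chaperones 8, including HSPA5 (-1.08).

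Within U2OS, many of these genes stood higher in the plasmid than in the siRNA libraries. The comparison of control plasmid with control siRNA was added after the values had been seen, so its tests describe these libraries only. The kind of nucleic acid and any difference in handling between these groups cannot be told apart. Of the 36 genes, 31 had a positive log2 fold change (41.9% of all genes tested did), with a median of 0.38 beside -0.11 over all genes. TRIB3 alone passed the edgeR test, beside 1.3% of all genes called in either direction and 0.268% called higher. The groups did not overlap upward for 25 of the 36, beside 26.6% of all genes, and downward for 3, beside 39.4%.

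TRIB3 rose from 23.5 and 19 CPM under control siRNA to 43.3 and 54.7 CPM with the control plasmid, a log2 fold change of 1.21 ± 0.21 (edgeR adjusted p = 0.0332). The SAM68 libraries split the same way, at 23.1 and 25.5 CPM with siRNA and 52.5 and 52.0 CPM with plasmid. All 4 plasmid libraries therefore lay above all 4 siRNA libraries for TRIB3. CHAC1 read 9.21 and 7.18 CPM in the control siRNA libraries and 18.0 and 17.8 CPM in the control plasmid libraries (1.13 ± 0.23, edgeR adjusted p = 0.0511). In the SAM68 groups it read 7.95 and 10.4 CPM for siRNA and 20.5 and 17.2 CPM for plasmid. CHAC1 missed the threshold although no plasmid library overlapped an siRNA library.

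PPP1R15A, in the order control siRNA, SAM68 siRNA, control plasmid and SAM68 plasmid, read 33.2 and 41.0, 39.4 and 44.7, 62.0 and 79.0, and 73.7 and 73.5 CPM (control plasmid against control siRNA 0.93 ± 0.20, edgeR adjusted p = 0.0591). The 5 feedback regulators had the highest median of the 5 roles with more than a pair of genes, at 0.93, and the transcription factors followed at 0.61. ATF4 read 465.1 and 497.8, 486.5 and 578.7, 674.0 and 736.5, and 908.2 and 678.9 CPM in that order (0.55 ± 0.19, edgeR adjusted p = 0.143). DDIT3 was at 13.7 and 11.6 CPM, 12.1 and 11.3 CPM, 21.6 and 18.5 CPM, and 28.2 and 18.3 CPM in the same order of groups (0.66 ± 0.24, edgeR adjusted p = 0.162). In ATF4 and DDIT3, as in PPP1R15A, each plasmid library stood above each siRNA library, without passing the test.

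ASNS read 201.1 and 157.9, 191.1 and 204.8, 217.2 and 234.6, and 226.9 and 220.2 CPM in the same order (0.33 ± 0.18). SLC38A2, a sodium-coupled neutral amino acid transporter, had the most negative value, at 551.3 and 469.5 CPM under control siRNA against 306.6 and 262.4 CPM with the control plasmid (-0.84 ± 0.33, edgeR adjusted p = 0.176). SLC7A11 overlapped between these groups, at 129.1 and 99.0 CPM against 106.3 and 83.6 CPM (-0.26 ± 0.40).

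**Figure D2:**
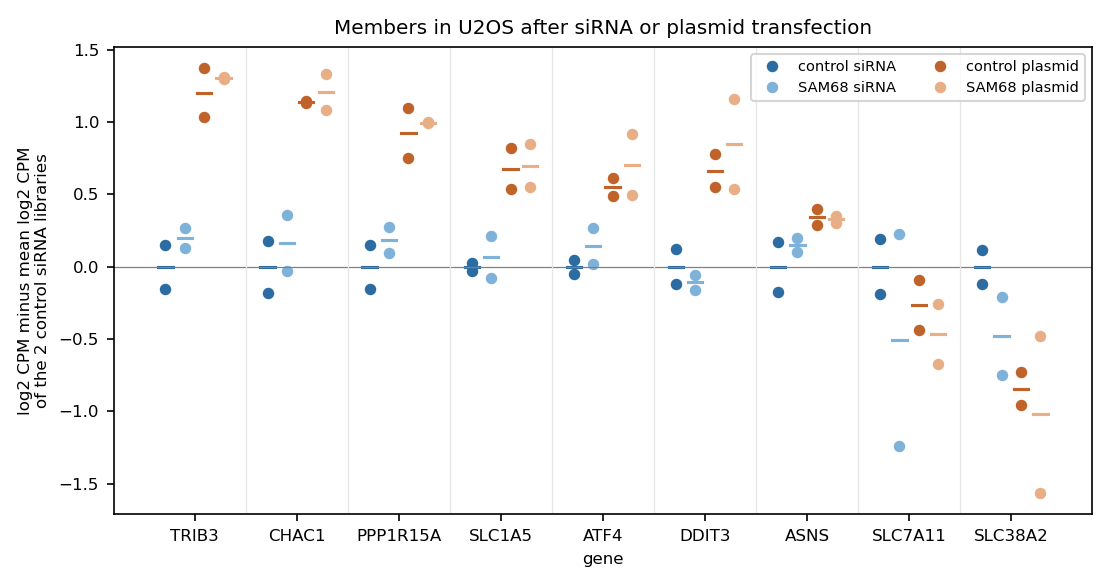
Values of 9 genes in the 8 U2OS libraries, as log2 CPM minus the mean log2 CPM of the 2 control siRNA libraries; points are libraries and short bars are means of 2. For TRIB3, CHAC1, PPP1R15A, SLC1A5, ATF4, DDIT3 and ASNS the plasmid libraries lie above the siRNA libraries, while SLC38A2 lies lower with the control plasmid than with control siRNA.

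No single library could be left out without losing the TRIB3 call, and the number of genes called among all those tested then fell from 204 to between 1 and 54. In a fit of only these 4 libraries 17 of the 36 were called, beside 3386 of all 15258 genes tested. With the GC and length offset 8 were called, beside 1359 of 14993. In the same comparison 1 of 5 tested epithelial markers was called higher (KRT18, 0.97 ± 0.18), beside 0.268% of all genes. Of 10 tested mesenchymal markers 1 was called lower (RUNX2, -1.38 ± 0.27), beside 1.03% of all genes. Their summed levels were 1181.6 to 1298.3 TPM in the control plasmid and 925.9 to 951.8 TPM in the control siRNA libraries for the epithelial list, and 3562.2 to 4070.3 against 4180.3 to 4617.5 TPM for the mesenchymal list. The sum of 7 markers of other cells was 0.1 to 0.3 against 1.1 to 1.2 TPM. Their part in the result was not tested. Of the further fixed lists, KLHL24 (-1.60 ± 0.25), 1 of 32 further reported ATF4 and CHOP targets, was called lower, beside 1.03% of all genes. OSGIN1 (1.24 ± 0.22), 1 of 13 tested glutathione and NRF2 targets, was called higher, beside 0.268% of all genes.

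SAM68 siRNA left the list without a call. Small changes could be missed, since in simulated data for this comparison edgeR recovered 0% of 1.5-fold and 20.9% of 2-fold changes. EdgeR called 0 of 36 genes, beside 0.00639% of all 15658 genes tested, and 0 had an unadjusted p below 0.05 (1.06% of all genes did). DESeq2 also called 0, beside 0.0447% of all genes. The log2 fold change was positive for 28 of the 36 (48.6% of all genes), with a median of 0.10 beside -0.01. That median was 0.24 without SAM68 siRNA replicate 1 and 0.00 without replicate 2. The SAM68 siRNA libraries lay wholly above control for 6 genes and below for 1, beside 9.46% and 9.42% of all genes.

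The most negative value belonged to SLC38A2, at 439.9 and 303.1 CPM beside 551.3 and 469.5 CPM in control (-0.46 ± 0.33, edgeR adjusted p = 1). Its groups did not overlap, but its pooled replicate SD of 0.44 log2 units in U2OS was close to the difference. SLC7A11 varied more, at 132.3 and 47.8 CPM within the SAM68 siRNA group against 129.1 and 99.0 CPM (-0.34 ± 0.40), with the largest replicate SD of the list, 0.57. The positive values with the smallest p were those of CBS (0.25 ± 0.18), SLC7A1, the cationic amino acid transporter, at 200.3 and 213.8 against 166.5 and 181.7 CPM (0.25 ± 0.20), and ATF5, a relative of ATF4 (0.24 ± 0.21). Each of the 5 feedback regulators and 10 enzymes had a positive value, with medians of 0.19 and 0.11.

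The SAM68 plasmid gave 0 of 36 calls against the control plasmid, beside 0.00639% of all genes, with 0 at an unadjusted p below 0.05 (0.549% of all genes) and 0 by DESeq2 (0.0255%). The groups did not overlap upward for 2 genes (10% of all genes) and downward for 1 (7.94%). The list was evenly split, 20 genes positive (52.5% of all genes) and a median of 0.01 equal to that of all genes. SLC7A1 had the largest absolute change, at 156.2 and 210.3 CPM against 201.1 and 246.0 CPM (-0.29 ± 0.20), and its groups overlapped. All 6 transcription factors had values above 0 and a median of 0.19, although ATF5 was at 0.00 to 2 decimals. The SLC3A2 libraries lay above control, at 437.4 and 371.0 against 327.2 and 369.7 CPM (0.21 ± 0.20), a difference about as large as its standard error.

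**Figure D3:**
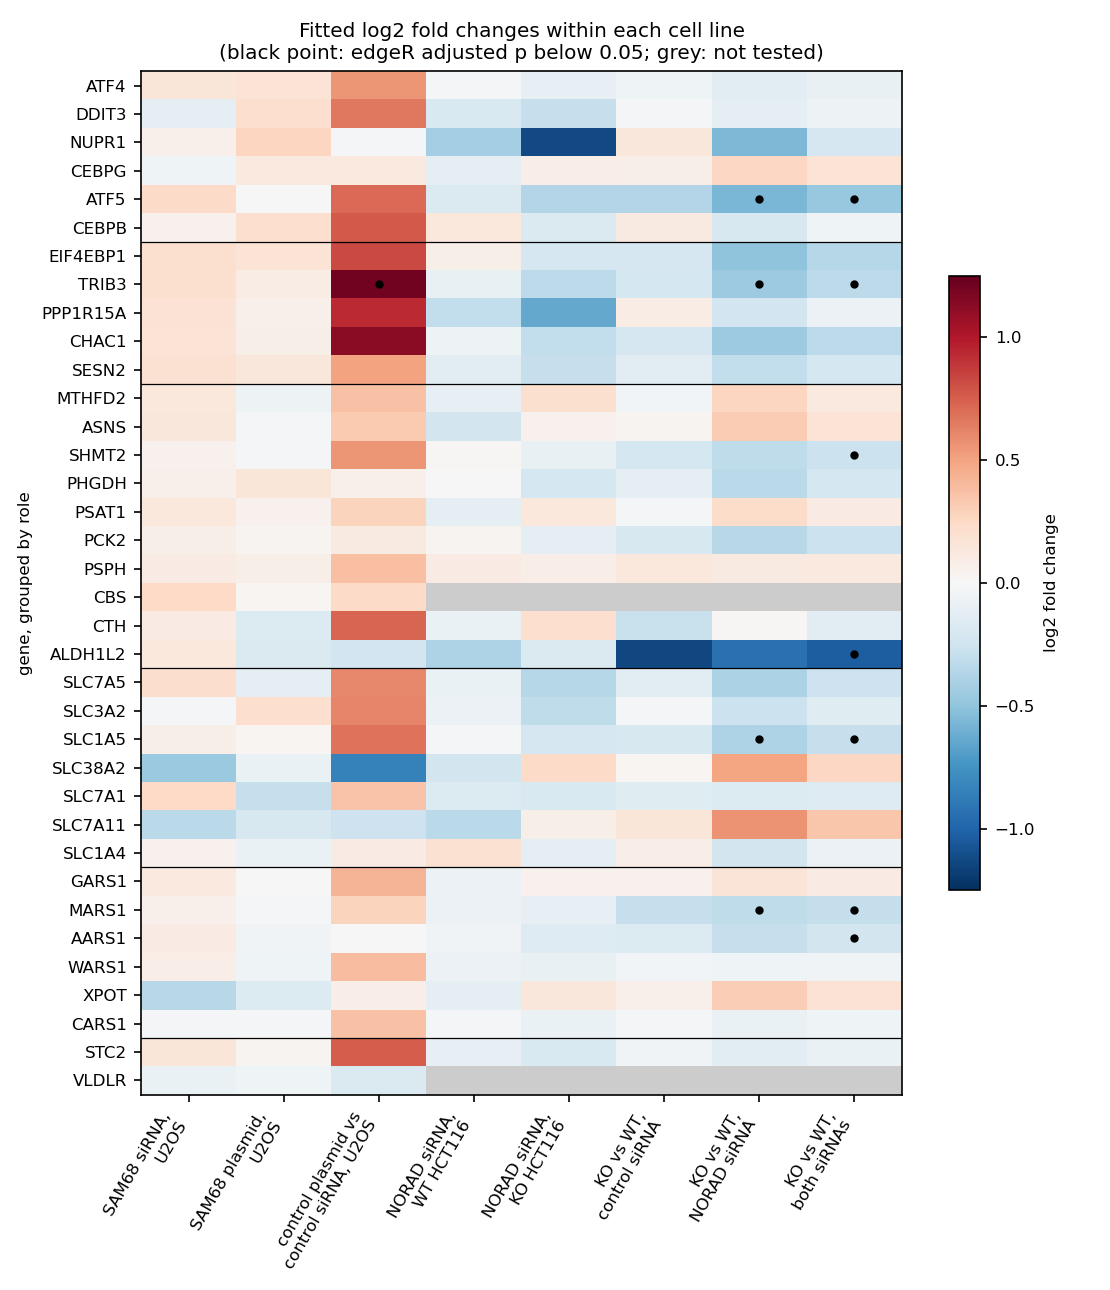
Fitted log2 fold changes of the 36 genes (rows, grouped by role) in 8 comparisons within a cell line (columns), with a black point where the edgeR adjusted p was below 0.05 and grey where the gene was not tested. Points stand for 7 genes in the knockout comparison over both siRNAs, 4 under NORAD siRNA and TRIB3 with the control plasmid.

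In HCT116, VLDLR and CBS fell under the filter on low counts, so 34 genes were tested. The NORAD siRNA comparisons gave no call in either genotype. In wild-type cells edgeR called 0 of 34, beside 0.00727% of 13764 genes, 0 had an unadjusted p below 0.05 (1.32% of all genes) and DESeq2 called 0 (0.0363%). Negative values were found for 27 of 34, beside 49.3% of all genes, with a median of -0.08 beside 0. The NORAD siRNA libraries lay wholly below control for 11 genes and above for 2, beside 13.9% and 13% of all genes.

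ASNS in wild-type cells read 444.4 and 484.4 CPM in control and 384.9 and 404.6 CPM in NORAD siRNA libraries (-0.23 ± 0.11, edgeR adjusted p = 0.999). SLC7A11 was at 128.5 and 151.9 CPM against 105.9 and 115.0 CPM (-0.34 ± 0.18), and PPP1R15A at 45.5 and 52.9 against 42.4 and 36.8 CPM (-0.31 ± 0.20). For these 3 genes both NORAD siRNA libraries lay below both control libraries. ATF4 overlapped, at 616.9 and 583.7 CPM against 624.5 and 562.1 CPM (-0.02 ± 0.10), as did DDIT3, at 35.4 and 41.3 against 37.3 and 29.9 CPM (-0.19 ± 0.17). The largest absolute value, NUPR1 at 1.12 and 0.606 against 0.862 and 0.411 CPM (-0.42 ± 0.59), rested on few counts.

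In SAM68 knockout cells 0 of 34 were called, again beside 0.00727% of all genes, and DESeq2 called 0 (0.0654% of all genes). An unadjusted p below 0.05 was reached by 5 genes, all lower, beside 11.3% of all genes. Negative values were found for 24 of 34 (49.4% of all genes), with a median of -0.14 that became -0.04 with the GC and length offset. The NORAD siRNA libraries lay below control for 15 genes and above for 2, beside 21.4% and 22% of all genes.

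PPP1R15A had the smallest p in the knockout, at 40.1 and 64.4 CPM in control and 34.3 and 32.9 CPM in NORAD siRNA libraries (-0.64 ± 0.20, edgeR adjusted p = 0.428). The control libraries of PPP1R15A were far apart, and over the alternatives its value ranged from -0.94 to -0.27. SLC3A2 was at 534.8 and 571.6 CPM against 422.4 and 463.2 CPM (-0.32 ± 0.11), and SLC7A5 at 1353.0 and 1297.5 against 906.7 and 1161.5 CPM (-0.36 ± 0.13). Both chains of that transporter thus lay below control in both libraries. TRIB3 was at 121.1 and 124.4 against 90.7 and 104.9 CPM (-0.33 ± 0.13), and ATF5 at 20.9 and 20.3 against 14.4 and 17.3 CPM (-0.37 ± 0.16). NUPR1 had the largest value of the list, -1.13 ± 0.63, from 1.52 and 0.490 to 0.444 and 0.438 CPM. The positive side was led by MTHFD2, at 519.5 and 569.9 against 594.4 and 659.7 CPM (0.20 ± 0.10).

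Whether the response to NORAD siRNA differed by genotype was tested as an interaction. EdgeR called 0 of 34 genes and 0% of all 13764, with 0 of the 34 at an unadjusted p below 0.05 (7.61% of all genes) and 0 by DESeq2 (0.0145%). Positive differences were found for 10 of the 34 (49.1% of all genes) and negative ones for 24 (50.9%). The median difference was -0.10 beside -0.01 over all genes, and 0.02 with the GC and length offset. Without that offset, the 9 tested enzymes had a median of 0.21, with 5 positive and 4 negative, and the 5 feedback regulators one of -0.24, and no difference between roles was tested. MTHFD2 (0.30 ± 0.14), ASNS (0.28 ± 0.15) and SLC7A11 (0.41 ± 0.25) had the smallest p of the positive values, and SLC3A2 (-0.26 ± 0.15) that of the negative ones. The smallest edgeR adjusted p of the list was 0.642.

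SAM68 knockout against wild type, averaged over both siRNAs with 4 libraries a side, gave the calls within HCT116. Of 34 genes 7 were lower and 0 higher, 20.6% of the list, beside 17.6% of all genes called in either direction, 6.62% called lower and 11% called higher. DESeq2 called 9 (21.5% of all genes), with SLC7A11 higher and without ALDH1L2. The 7 were the methionyl- and alanyl-tRNA synthetases MARS1 and AARS1, the transcription factor ATF5, the mitochondrial serine hydroxymethyltransferase SHMT2, TRIB3, the glutamine transporter SLC1A5, and ALDH1L2. Negative values were found for 25 of 34 (51% of all genes) and positive ones for 9 (49%), with a median of -0.11 beside -0.01. The 4 knockout libraries lay wholly below the 4 wild-type libraries for 7 genes, beside 8.71% of all genes, and wholly above for 0, beside 10.4%. The changes were small, between 1.17-fold and 1.39-fold lower for all but ALDH1L2.

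MARS1 read 349.5 and 359.1 CPM (control siRNA) and 348.8 and 325.0 CPM (NORAD siRNA) in wild type, while the knockout libraries read 290.1 and 290.0 CPM and 263.6 and 276.5 CPM (-0.30 ± 0.06, edgeR adjusted p = 0.0182). Every wild-type library lay above every knockout library. MARS1 overlaps DDIT3 in the RefSeq table, and whether counting used the strand is not given in the sources used here. DDIT3 itself overlapped between genotypes, at 35.4, 41.3, 37.3 and 29.9 CPM in wild type against 32.4, 43.7, 31.2 and 31.4 CPM (-0.06 ± 0.12).

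ATF5 was at 30.4 and 22.9 CPM and 23.6 and 23.5 CPM in wild-type cells under control and NORAD siRNA, and at 20.9 and 20.3 CPM and 14.4 and 17.3 CPM in the knockout (-0.47 ± 0.11, edgeR adjusted p = 0.0234). No knockout library reached a wild-type one, and the row also holds a microRNA gene, MIR4751, that overlaps ATF5. TRIB3, in the same order, was at 155.7 and 129.3, 142.7 and 124.4, 121.1 and 124.4, and 90.7 and 104.9 CPM (-0.33 ± 0.09, edgeR adjusted p = 0.0349). The TRIB3 groups touched at 124.4 CPM as printed, between wild-type NORAD siRNA replicate 2 and knockout control siRNA replicate 2. ATF4 did not follow, at 616.9, 583.7, 624.5 and 562.1 CPM in wild type against 608.9, 553.2, 536.6 and 550.4 CPM (-0.09 ± 0.07, edgeR adjusted p = 0.395), and its libraries overlapped.

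SHMT2, which feeds serine carbon into the folate pool, was at 365.3, 355.4, 372.7 and 353.0 CPM in wild type, against 320.5, 300.4, 307.7 and 274.2 CPM in knockout libraries (-0.27 ± 0.07, edgeR adjusted p = 0.0316). AARS1 was at 314.5, 338.0, 331.5 and 303.7 CPM against 292.7, 285.8, 250.2 and 268.7 CPM (-0.23 ± 0.07, edgeR adjusted p = 0.0449). SLC1A5 was at 416.2, 358.0, 406.2 and 355.2 CPM against 355.7, 317.6, 282.5 and 299.6 CPM (-0.29 ± 0.08, edgeR adjusted p = 0.0385), with 1 knockout library just above the lowest wild-type one. SHMT2 and AARS1 were separated by genotype in every library. ALDH1L2 was low throughout, at 1.26, 1.27, 0.862 and 1.08 CPM against 0.379, 0.735, 0.444 and 0.547 CPM (-1.03 ± 0.29, edgeR adjusted p = 0.0402), with at most 27 counts in any HCT116 library. MARS1, AARS1 and SLC1A5 are among the genes with the C/EBP-ATF letters shown above, and ATF5 and TRIB3 are not. SHMT2 and ALDH1L2 had no promoter entry, and a link between the letters and the calls was not tested.

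Other genes of the list had positive values that did not pass this test. SLC7A11 was at 128.5, 151.9, 105.9 and 115.0 CPM in wild type against 126.9, 183.4, 145.0 and 180.4 CPM (0.35 ± 0.13, edgeR adjusted p = 0.0761), and over the alternatives its value ranged from -0.01 to 0.45. SLC7A11 was called higher by DESeq2 (adjusted p = 0.0294), with no low-count filter (edgeR adjusted p = 0.00373), with the replicate block (0.00272) and without knockout control siRNA replicate 1 (0.0199). ASNS was at 444.4, 484.4, 384.9 and 404.6 CPM against 460.4, 489.3, 452.8 and 530.3 CPM (0.17 ± 0.08, edgeR adjusted p = 0.131, and 0.0196 with the replicate block). Both genes overlapped between genotypes. PPP1R15A overlapped as well, at 45.5, 52.9, 42.4 and 36.8 against 40.1, 64.4, 34.3 and 32.9 CPM (-0.07 ± 0.14).

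**Figure D4:**
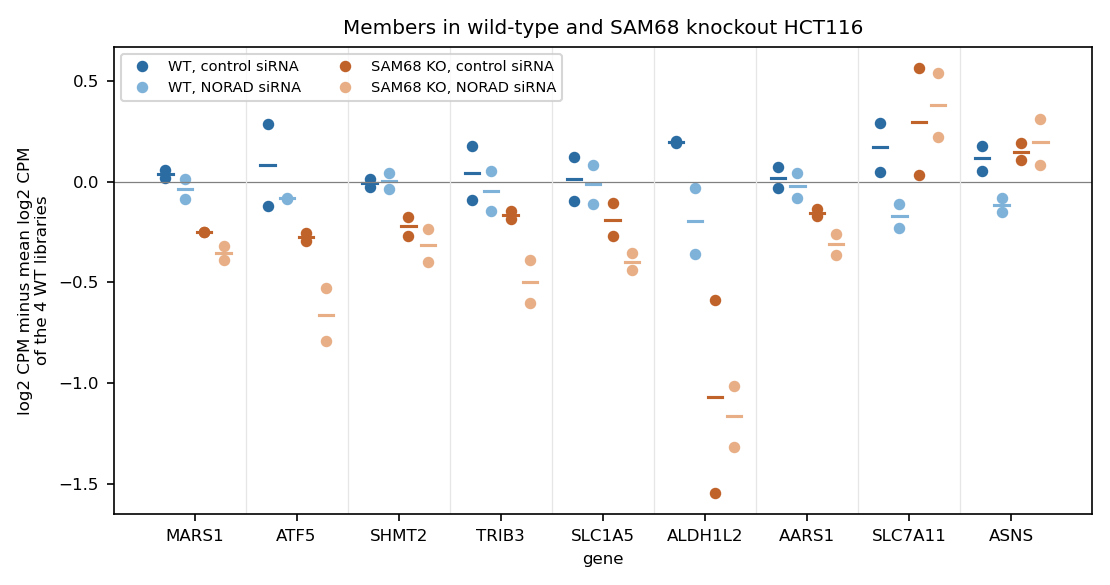
The 7 genes called between genotypes, with SLC7A11 and ASNS, in the 8 HCT116 libraries, as log2 CPM minus the mean log2 CPM of the 4 wild-type libraries; points are libraries and short bars are means of 2. The knockout libraries lie at or below the wild-type libraries for 6 of the 7 called genes, SLC1A5 overlaps, and the knockout NORAD siRNA libraries have the lowest means for all 7.

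Within one siRNA at a time the calls came from the NORAD siRNA libraries. Under control siRNA edgeR called 0 of 34, beside 0.312% of all genes, and DESeq2 called 0 (0.845% of all genes). An unadjusted edgeR p below 0.05 was reached by 3 genes (9.22% of all genes). MARS1 (-0.29 ± 0.09), ALDH1L2 (-1.14 ± 0.42) and ATF5 (-0.37 ± 0.15) led there. Under NORAD siRNA 4 of 34 were called, all lower (11.8%, beside 18.1% of all genes in either direction and 6.58% lower): ATF5 (-0.57 ± 0.15), TRIB3 (-0.45 ± 0.13), MARS1 (-0.32 ± 0.09) and SLC1A5 (-0.39 ± 0.12), with edgeR adjusted p-values of 0.0362, 0.0398, 0.0409 and 0.0473. The knockout libraries lay below wild type for 18 genes and above for 8, beside 34.8% and 33.9% of all genes. SLC7A11 (0.56 ± 0.18, edgeR adjusted p = 0.0546), ASNS (0.32 ± 0.11, 0.0663) and MTHFD2 (0.27 ± 0.10, 0.0802) were the positive values with the smallest p. These 2 siRNA strata share no library, and the interaction given above did not call a difference between them.

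The knockout calls depended on single libraries. In place of 7 genes, 0 were called without wild-type control siRNA replicate 1, wild-type NORAD siRNA replicate 1, knockout control siRNA replicate 2 or knockout NORAD siRNA replicate 1. MARS1 alone, 1 gene, was called without wild-type NORAD siRNA replicate 2. Without knockout NORAD siRNA replicate 2 there were 4, MARS1 and ATF5 of the 7 with CHAC1 and SLC7A5. Without wild-type control siRNA replicate 2 there were 10 and without knockout control siRNA replicate 1 there were 9. The number called among all genes moved too, from 2424 to between 201 and 3144. The genes of the list are richer in GC than the rest, with a median of 52.9% against 48.9% of all tested genes. With the GC and length offset 2 were called (ALDH1L2 and MARS1), beside 1611 of all 13325 genes, and the median log2 fold change was -0.04. The 4 calls under NORAD siRNA became 0 with that offset (558 of 13325 genes were called), at a median of -0.02. No library of that comparison could be left out without losing all 4 calls.

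Of 9 tested epithelial markers 1 was higher in the knockout (EPCAM, 0.32 ± 0.07), a share of 11.1% beside 11% of all genes. Of 6 tested mesenchymal markers 2 were lower (VIM, -1.09 ± 0.19, and FN1, -0.41 ± 0.10), beside 6.62% of all genes. The summed epithelial level was 4373.7 to 4872.6 TPM in wild-type and 4649.0 to 5558.4 TPM in knockout libraries, and the mesenchymal sum 12.3 to 14.9 against 9.3 to 10.6 TPM, with COL1A2 and ZEB2 at 0 throughout. Their part in the result was not tested.

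Lists around the pathway had calls in both directions, beside 11% of all genes called higher and 6.62% called lower. Of 18 genes for eIF2 kinases, eIF2, eIF2B and their regulators, 4 were higher in the knockout and 1 lower, with a median of 0.10. Among them were OMA1 (0.46 ± 0.10), a mitochondrial protease, EIF2S1 (0.24 ± 0.07), the phosphorylated subunit of eIF2, and GCN1 (-0.27 ± 0.06), the activator of GCN2. Of 30 tested further reported ATF4 and CHOP targets, 5 were higher (16.7%) and 0 lower, among them GDF15 (0.99 ± 0.16), ERO1A (0.35 ± 0.08) and EPRS1 (0.26 ± 0.07). Of 12 endoplasmic reticulum chaperones 4 were higher, including DNAJB9 (0.77 ± 0.19), DNAJC3 (0.45 ± 0.12) and HSP90B1 (0.28 ± 0.08). The 8 other cytosolic tRNA synthetases had 1 call each way, VARS1 (-0.30 ± 0.07) and FARSB (0.27 ± 0.08). Of 13 tested glutathione and NRF2 targets ME1 was called higher (0.38 ± 0.10).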

How the data were processed

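The deposited values were made by the authors with RSEM, 1 file per library with no pooling, per the file headers. The submitters' processing notes name STAR, RSEM and hg19. Their versions and the strand setting of counting were not given in the sources used here. Expected counts, which are estimated read counts, were taken as deposited, then rounded to whole numbers. TPM, deposited by the authors and scaled for length and depth, served for levels between genes and lines.

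Each line was fitted apart with its 4 groups sharing the spread (15658 genes in U2OS, 13764 in HCT116), and the line comparison over all 16 libraries (16444 genes). Low counts were filtered with filterByExpr, TMM gave the scaling, and the test was edgeR's quasi-likelihood test (edgeR 4.0.16, limma 3.58.1, R 4.3.3). P-values were Benjamini-Hochberg adjusted over all genes tested, with calls below 0.05. Exact permutation of 2 against 2 libraries cannot go below p = 0.333. The scripts were tested on simulated data. For SAM68 siRNA in U2OS, 0% of 1.5-fold, 20.9% of 2-fold and 83.3% of 4-fold changes were recovered. For the knockout over both siRNAs the shares were 64.2%, 76.1% and 100%. The spread between replicates beyond counting noise, edgeR's coefficient of variation, came to 20% (U2OS) and 11.3% (HCT116), and it may be technical. Replicates differed by more than sampling noise (chi-square per gene 7.83 to 60.1), most in the U2OS SAM68 siRNA (60.1) and SAM68 plasmid (47.1) pairs. All 16 libraries were kept. CPM are TMM-scaled within a line.

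Alternatives were DESeq2 1.42.0, RLE scaling, no filter, only the groups compared, a replicate block, an offset for GC content and length, and leaving out each library. Values per library were fixed for ATF4, DDIT3, TRIB3, ASNS, SLC7A11, PPP1R15A, the 14 genes with the smallest adjusted p, and the largest absolute change per comparison. Values of the other called genes were added. Uncalled genes were named by the 3 smallest p per direction, and genes of other lists where called, at most 3 per list. The members and lists were chosen with earlier results of these data known. The RefSeq tables belong to another build than the files and served for names, overlaps and promoter sequences.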

Additional observations from a re-analysis of the deposited data

How the results depend on the processing

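Each of the 9 planned comparisons of the members, and the 1 added after the data were seen, was refitted under the alternatives. Of 1156 refitted values of single genes, 950 kept their direction and side of the threshold, 103 lost a call, 74 gained one, 27 uncalled ones turned sign, and 2 called ones reversed. Both reversals were EIF4EBP1 between the lines, -0.77 as reported, at 0.17 with the GC and length offset and 0.17 with the replicate block and that offset. For the members called between genotypes over both siRNAs (7), the count was 14 with no low-count filter (3772 of 18908 genes). It was 18 with the replicate block (5247 of 13764) and 2 with the GC and length offset (1611 of 13325, median -0.04). Not all of these calls were lower, since the 14 and the 18 include SLC7A11, which was called higher, and the 18 also ASNS, with a positive value. The count ran from 0 to 10 without 1 library. Under NORAD siRNA (4) the count was 12 with no filter (3965 of 18908 genes), 18 with the replicate block (5539 of 13764) and 9 by DESeq2 (25.9% of all genes). It was 13 with only the groups compared (4417 of 13638) and 0 with the GC and length offset (558 of 13325, median -0.02). With block and offset it was 2 (1913 of 13325, median -0.03). Without 1 library the median ran from -0.3 to -0.12. Under control siRNA (0) the count was 1 with block and offset (817 of 13325 genes), and the median ran from -0.09 to -0.03 without 1 library. NORAD siRNA in the knockout (0) gave 1 call with no filter (61 of 18908 genes). For control plasmid against control siRNA (1) the count was 2 with RLE (184 of 15658 genes), 6 with no filter (1609 of 21581) and 2 with the replicate block (296 of 15658). It was 8 with the GC and length offset (1359 of 14993), 8 with block and offset (1869 of 14993) and 9 by DESeq2 (7.06% of all genes). With only the groups compared it was 17 (3386 of 15258). Without 1 library the median lay between 0.34 and 0.60. The SAM68 siRNA median ran from 0.00 to 0.24 without 1 library. The cause of these differences was not tested. A fit that leaves a group with 1 library assumes that it varies like the other groups.

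The labels share replicate numbers but no batch or day. The replicate 2 minus replicate 1 differences of the groups compared correlated across genes at -0.04 to 0.38, over only 2 numbers, so the block was kept as an alternative. The line comparison (29) called 28 members with RLE scaling (10754 of 16444 genes), 28 by DESeq2 (64.8% of all genes) and 32 with the GC and length offset (11541 of 15718). Its median ran from -0.66 to -0.6 without 1 library. ALDH1L2, NUPR1 and CBS had few counts in HCT116, and VLDLR none, so their changes within that line were poorly measured or not tested.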
